A study of Homo sapiens with 6 samples.

Results

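The genes described here are 52 receptors and ligands of axon guidance, among the 18358 genes of the deposited table. They were chosen by name as members of 4 families, with earlier results of these data known. The families gave 16 Eph receptors and ephrins, 26 semaphorins, plexins and neuropilins, 5 Slits and Robo receptors, and 5 netrins and netrin receptors. RNA was measured by RNA-seq in ME180, an established cervical epidermoid carcinoma line, which the labels trace to a retinal metastasis. The cells of 3 libraries carried a vector, and those of the other 3 a guide (sgVPS13C) that targets VPS13C, a gene for a lipid transfer protein of membrane contact sites. The second group is named VPS13C knockout in what follows. All cells of both groups had been given cisplatin, a platinum drug that crosslinks DNA, at 2 µM for 48 h, so that each difference is one between cisplatin-treated populations, and untreated cells were not analysed here. The labels state neither whether replicates were separate cultures nor whether the knockout was a clone or a pool, so the p-values rest on variation among 6 libraries that may be technical only.

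Axon guidance molecules were named for steering growing nerve fibres, and most are also made by epithelia, where they act in cell sorting, adhesion and migration. Eph receptors are tyrosine kinases that bind ephrins on the neighbouring cell, and both sides can signal. Semaphorins bind plexins, with neuropilins as co-receptors for most secreted class 3 semaphorins. Slits are secreted ligands of Robo receptors, and netrins bind DCC, neogenin and UNC5 receptors.

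Depth was similar, with 14774065 to 15799149 counts per library. VPS13C itself was at 48.1, 30.1 and 35.0 CPM (CPM being read counts scaled for TMM-adjusted library size) in vector replicates 1 to 3 and at 28.6, 18.6 and 23.7 CPM in knockout replicates 1 to 3. Its knockout libraries lay below all vector libraries, but its log2 fold change of -0.67 (SE 0.22) was not called (edgeR quasi-likelihood test, adjusted p = 0.0513). The summed level of 10 squamous epithelium markers was 12100 to 15000 CPM in vector and 20100 to 23500 CPM in knockout libraries. Of these markers 6 were called higher, or 60.0% beside 17.8% of all tested genes. EPCAM was called lower, or 10.0% beside 17.4%, and KRT17, TP63 and CDH1 were not called. The part of these squamous markers in the changes described here was not tested. Of the neuron markers, 5 of 9 were under 1 CPM in all libraries. Their summed level, mostly TUBB3, was 27.7 to 36.7 CPM in vector and 24.6 to 29.4 CPM in knockout. TUBB3 was called lower (from 27.2 to 18.3 CPM, edgeR adjusted p = 0.0265), but MAP2 was called higher (from 2.12 to 5.66 CPM, adjusted p = 0.00113). SYP and RBFOX3 were not called, though their knockout libraries lay above all vector libraries. Those of SNAP25, which was too low to test, lay below all vector libraries. The groups did not overlap for 48.5% of all tested genes. In the other lists, 5 of 6 glia and Schwann, 4 of 6 fibroblast, 4 of 6 endothelial and 5 of 7 leukocyte markers were under 1 CPM throughout. The sums of these lists, in the order vector then knockout, were 55.7 to 75.3 and 41.6 to 49.8 CPM for glia, 37.1 to 44.3 and 47.6 to 50.5 CPM for fibroblasts, 8.57 to 8.97 and 22.0 to 25.1 CPM for endothelium, and 72.8 to 87.1 and 42.0 to 46.8 CPM for leukocytes. Single genes made up most of each sum (MBP, COL1A1, VWF and CD68). Of these, VWF was called higher, MBP and CD68 lower, and COL1A1 was not called. SOX10, PECAM1 and PTPRC stayed below 0.1 CPM in each library, but other defining markers differed between the groups. The endothelial cadherin CDH5 was at 1.94 to 2.47 CPM in vector and 0 to 0.263 CPM in knockout libraries and was called lower. The fibroblast proteoglycan DCN was at 0.179 to 0.194 CPM in vector and 3.33 to 4.07 CPM in knockout and was called higher. Each passed the low-count filter only through the group where it was higher, so the calls of CDH5 and DCN support nothing further. The part of these markers in the changes described here was not tested.

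The listed members changed in both directions, more often upward. Of the 52 members, 47 passed the low-count filter and were tested, of which ROBO1 passed through its vector libraries alone. The call of ROBO1, and its part in the counts below that hold it, therefore support nothing further. At an adjusted p under 0.05, 27 of the 47 were called, or 57.4%, beside 35.1% of all 13717 tested genes (edgeR quasi-likelihood test). By direction, 18 were higher in the knockout, or 38.3% beside 17.8% of all genes, and 9 were lower, or 19.1% beside 17.4%. The members were chosen with earlier results of these data known, so these shares support no statement about guidance genes at large. Among 16 tested relatives outside the 52, 12.5% were called higher and 18.8% lower. A change of at least 2-fold was called for 12 members, 7 up and 5 down, where 12.6% of all tested genes met both criteria. The 3 knockout libraries did not overlap the 3 vector libraries for 35 of the 47, compared with 48.5% of all tested genes. The median log2 fold change of the members was 0.16 and its median size 0.58, while over all tested genes these were 0.00 and 0.33. In bulk RNA, fewer cells making a transcript and less transcript per cell cannot be told apart.

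Receptors and ligands both held calls in each direction. Of 22 tested receptors 10 were higher (45.5%) and 4 lower (18.2%), and of 25 tested ligands 8 were higher (32.0%) and 5 lower (20.0%). Over all tested genes these shares were 17.8% and 17.4%, so the lower calls of both roles were near the background. Changes of 2-fold or more were called for 9 of the ligands and 3 of the receptors, beside 12.6% of all tested genes.

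**Figure D1:**
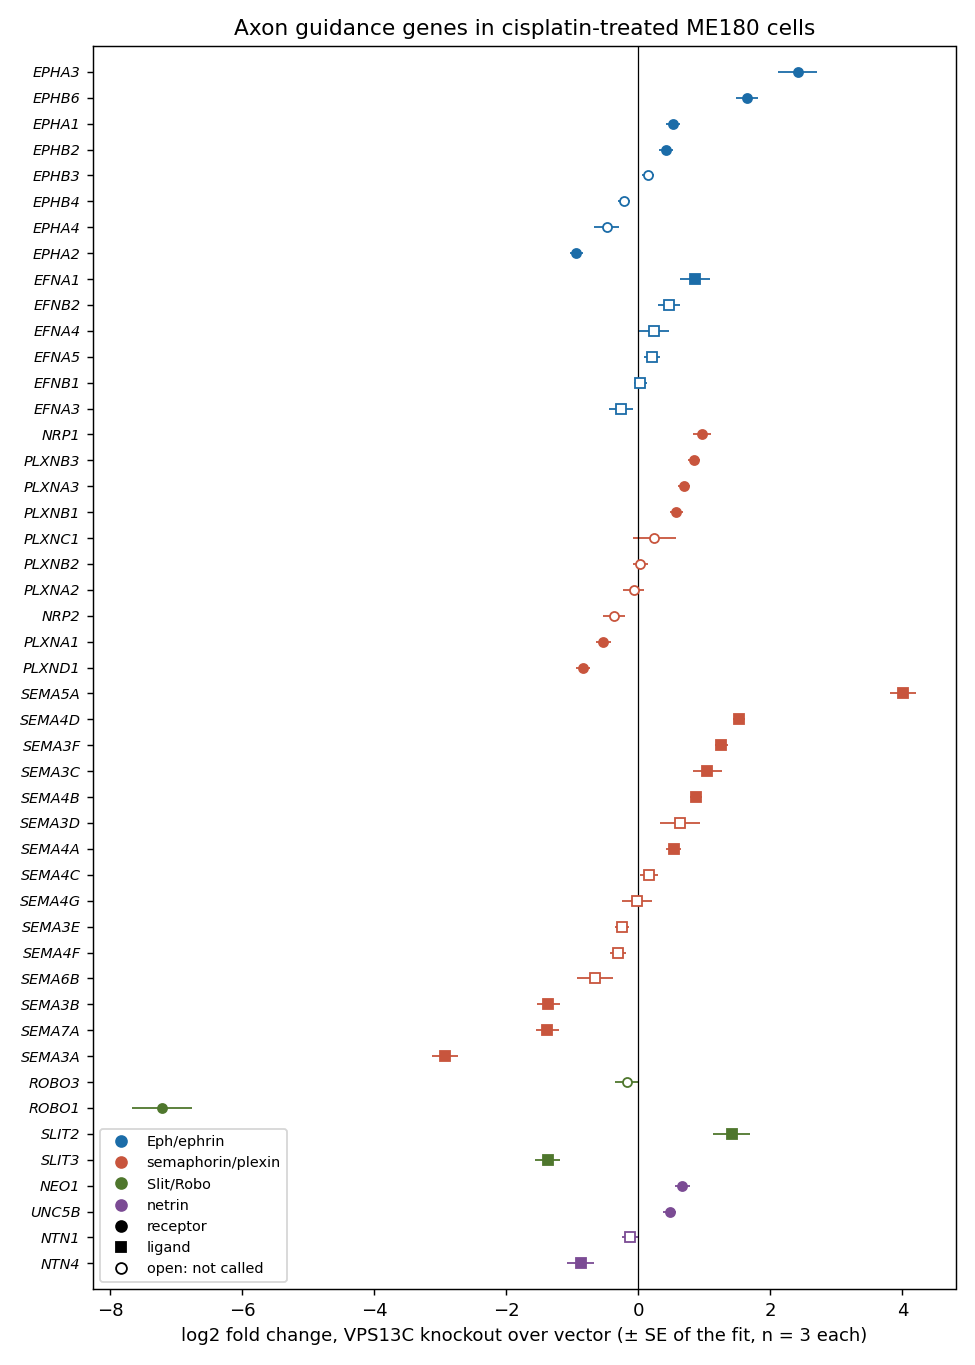
Log2 fold change of knockout over vector for the 47 tested members, one row per gene, grouped by family and role, with bars for the SE of the fit (n = 3 libraries per group); filled symbols mark the 27 called members. SEMA5A lies farthest to the right at 4.01, and the point of ROBO1 is a fitted value that depends on the prior count, since its knockout libraries held 2, 0 and 1 counts.

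**Figure D2:**
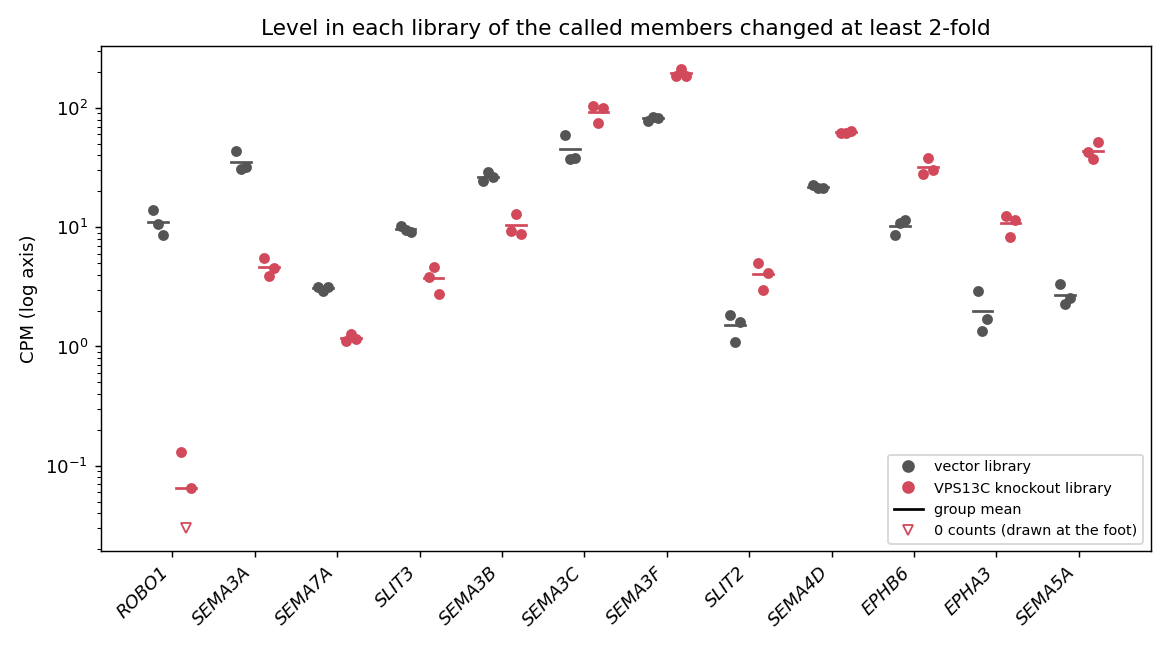
CPM (log axis) in each of the 3 vector and 3 knockout libraries for the 12 called members that changed at least 2-fold, with group means as lines. The groups are separate for each of the 12 genes, and the open triangle marks the ROBO1 library with 0 counts.

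Among the Eph receptors, the balance moved away from EPHA2. EPHA2, a receptor abundant in many epithelia and carcinomas, fell from 209 ± 18.4 to 109 ± 5.00 CPM (mean ± SD, n = 3), a log2 fold change of -0.94 (SE 0.10, edgeR adjusted p = 5.7e-04). On the FPKM scale, which divides by transcript length, it supplied 55.5 ± 2.95% of the summed level of the 10 Eph receptors in vector libraries and 34.5 ± 2.42% in knockout libraries. The sum itself was 104 ± 7.91 FPKM in vector and 85.3 ± 2.19 FPKM in knockout cells. Among the 8 tested Eph receptors of the list, EPHA2 alone was called lower, against 4 called higher. These were 12.5% and 50.0%, beside 17.4% and 17.8% of all tested genes. Outside the list, EPHA8 was also called lower, as given with its limits under other observations.

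EPHA3, an Eph receptor that binds mainly A-type ephrins and lies at chr3:89107621-89482134, had 2.93, 1.36 and 1.71 CPM in vector replicates 1 to 3. Its knockout replicates had 12.5, 8.30 and 11.5 CPM. All knockout libraries were above all vector libraries, and the lowest of them was knockout replicate 2. The log2 fold change was 2.42 (SE 0.30, edgeR adjusted p = 0.00105). EPHB6, a family member whose kinase domain is inactive, at chr7:142855076-142871093, had 8.61, 10.8 and 11.4 CPM in vector and 27.9, 38.1 and 30.3 CPM in knockout replicates 1 to 3. The groups were again separate, with a log2 fold change of 1.64 (SE 0.17, edgeR adjusted p = 5.3e-04).

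EPHA1, which lies 520.0 kb from EPHB6 on chromosome 7, rose from 22.9 ± 0.71 to 33.0 ± 2.91 CPM (log2 fold change 0.53, edgeR adjusted p = 0.00836). EPHA1 overlaps an antisense gene, EPHA1-AS1, in the RefSeq annotation, and since the strandedness of the libraries is not given, reads of the pair cannot be told apart. EPHB2, a receptor of B-type ephrins, rose from 17 ± 0.97 to 22.8 ± 1.35 CPM (log2 fold change 0.42, edgeR adjusted p = 0.0192). This call was lost without vector replicate 3 (adjusted p = 0.0786), without knockout replicate 1 (0.0791) or without knockout replicate 3 (0.0618), and in limma on FPKM (0.183), in a range of 0.00388 to 0.183 over all alternatives. EPHA4, EPHB3 and EPHB4 were not called, with log2 fold changes of -0.48, 0.15 and -0.22. EPHA7 and EPHB1 were too low to test, at 0, 1 and 0 counts in vector and 0, 0 and 0 in knockout for EPHA7, and at 2, 0 and 0 against 5, 1 and 2 counts for EPHB1.

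Of the 6 listed ephrins, all tested, 1 was called, or 16.7% beside 35.1% of all tested genes. EFNA1, a membrane-anchored ligand of EphA receptors including EPHA2, was the most abundant of all Eph and ephrin members, at 144 FPKM over all libraries. In FPKM it was at 84.1, 121 and 109 in vector and at 151, 222 and 178 in knockout replicates 1 to 3, and in both groups replicate 2 was the highest. In CPM it rose from 134 ± 29.3 to 242 ± 60.0, a log2 fold change of 0.85 (SE 0.22, edgeR adjusted p = 0.0238). Without vector replicate 3 (adjusted p = 0.0710) or knockout replicate 3 (0.0654) EFNA1 was no longer called, and over all alternatives the values ran from 1.47e-06 to 0.0710. Its share of the summed ephrin FPKM was 45.9 ± 3.99% in vector and 58.9 ± 4.46% in knockout cells. In the same libraries EFNB1, the next most abundant ephrin, was at 88.0 ± 3.56 FPKM in vector and 87.8 ± 1.63 FPKM in knockout, and its log2 fold change of 0.03 (SE 0.10) was not called.

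The remaining ephrins, EFNA3, EFNA4, EFNA5 and EFNB2, had log2 fold changes of -0.26, 0.24, 0.21 and 0.47, none called. EFNB2, a ligand of EphB receptors and of EPHA4, was nearest to the threshold, with knockout libraries above all vector libraries (edgeR adjusted p = 0.0633). It passed in 5 of 14 alternatives, across which the adjusted p ran from 4.06e-04 to 0.195. EFNA4, EFNA3 and EFNA1 lie side by side on chromosome 1, with gaps of 9.28 and 40.3 kb, and of these EFNA1 alone passed the test. A joint EFNA4-EFNA3 gene is annotated over the first pair, so their counts may share reads.

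Of the 25 tested members of the semaphorin and plexin family, 10 were called higher and 5 lower. The 15 tested ligands held 6 higher and 3 lower, and the 10 receptors 4 higher and 2 lower. Over all tested genes 17.8% were called higher and 17.4% lower. The lower calls made up 20.0% of the family, of its ligands and of its receptors, so they were near the background. Calls in either direction made up 60.0% of each, beside 35.1% of all tested genes. The class 3 semaphorins, the secreted ones, divided: SEMA3C and SEMA3F were higher, SEMA3A and SEMA3B lower, and SEMA3D and SEMA3E not called.

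SEMA3A, the repellent ligand that gave the family its role in growth cone collapse and which binds NRP1, lies at chr7:83955777-84492725. It had 43.6, 30.9 and 31.9 CPM in vector and 5.52, 3.90 and 4.53 CPM in knockout replicates 1 to 3. Every knockout library was far below every vector library, with a log2 fold change of -2.93 (SE 0.20, edgeR adjusted p = 1.11e-04). SEMA3E and SEMA3D, which lie 307 and 503 kb from SEMA3A, had log2 fold changes of -0.24 and 0.63 and were not called. SEMA3C, another secreted ligand of the neuropilins, at chr7:80742538-80922389, had 59.8, 37.1 and 38.4 CPM in vector and 104, 74.6 and 100 CPM in knockout replicates 1 to 3. The groups did not overlap, and the nearest libraries across them were vector replicate 1 and knockout replicate 2. The log2 fold change of SEMA3C was 1.04 (SE 0.22, edgeR adjusted p = 0.0105), and without knockout replicate 3 the adjusted p was 0.0535, with a range of 3.61e-06 to 0.0535 over all alternatives.

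SEMA3B and SEMA3F are neighbours on chromosome 3, 71.2 kb apart, and changed in opposite directions. SEMA3B (chr3:50260226-50277546), a secreted semaphorin from a region often deleted in lung cancer, had 24.2, 29.3 and 26.3 CPM in vector and 9.33, 13.0 and 8.73 CPM in knockout replicates 1 to 3. The knockout libraries all lay below the vector libraries, with a log2 fold change of -1.36 (SE 0.17, edgeR adjusted p = 0.00124). SEMA3F (chr3:50155058-50189075), a ligand that prefers NRP2, had 78.1, 84.3 and 83.2 CPM in vector and 186, 213 and 187 CPM in knockout replicates 1 to 3. Here the knockout libraries all lay above the vector libraries, with a log2 fold change of 1.25 (SE 0.10, edgeR adjusted p = 1.54e-04). Antisense genes are annotated at both loci, and without strand information their reads cannot be separated from those of SEMA3B and SEMA3F.

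On the FPKM scale SEMA3F made up 47.5 ± 3.22% of the summed class 3 level in vector cells and 68.7 ± 3.95% in knockout cells. SEMA3A made up 9.33 ± 1.57% and 0.752 ± 0.123%. The summed level of the 6 class 3 genes was 55.4 ± 4.04 FPKM in vector and 88.3 ± 2.85 FPKM in knockout, so that the total was higher while SEMA3A was nearly gone from it.

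Of the 6 class 4 semaphorins, which are membrane proteins, 3 were called higher, or 50.0% beside 17.8% of all tested genes. The count called lower was 0, where 17.4% of all tested genes were lower. With 6 genes, the lack of a lower call is not read as a trait of the class. SEMA4D, a ligand of PLXNB1 also known from lymphocytes, at chr9:89360787-89498113, had 22.5, 21.5 and 21.3 CPM in vector and 62.3, 61.5 and 64.2 CPM in knockout replicates 1 to 3. The libraries within each group were close together and the groups far apart, with a log2 fold change of 1.53 (SE 0.09, edgeR adjusted p = 6.8e-05). SEMA4B, by FPKM the most abundant of its class, rose from 95.2 ± 3.08 to 174 ± 11 CPM (log2 fold change 0.87, edgeR adjusted p = 5.26e-04). SEMA4A rose from 32.4 ± 2.62 to 47.0 ± 3.92 CPM (log2 fold change 0.54, edgeR adjusted p = 0.0101). SEMA4C, SEMA4F and SEMA4G were not called, at log2 fold changes of 0.16, -0.31 and -0.02. The knockout libraries of SEMA4F lay below all vector libraries, and it passed as lower with the length trend removed (edgeR adjusted p = 0.0381). The summed class 4 level was 49.7 ± 0.20 FPKM in vector and 85.0 ± 0.82 FPKM in knockout, and the share of SEMA4B in it was 56.8 ± 0.62% and 58.8 ± 0.76%.

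SEMA5A showed the largest rise of all members. It encodes a transmembrane semaphorin with thrombospondin repeats that binds PLXNB3, and lies at chr5:9035033-9546075. In vector replicates 1 to 3 it had 3.35, 2.27 and 2.54 CPM, and in knockout replicates 1 to 3 it had 42.8, 37.2 and 51.9 CPM. Even the lowest knockout library was more than 10-fold above the highest vector library, and the log2 fold change was 4.01 (SE 0.20, edgeR adjusted p = 3.9e-05). An antisense gene, SEMA5A-AS1, lies within the gene, and its reads could not be told apart. SEMA7A, a semaphorin held by a lipid anchor that binds PLXNC1, at chr15:74409289-74433958, moved the other way. It had 3.17, 2.92 and 3.17 CPM in vector and 1.12, 1.28 and 1.16 CPM in knockout replicates 1 to 3, all knockout libraries being lower (log2 fold change -1.38, SE 0.18, edgeR adjusted p = 0.00122). SEMA6B, at -0.65, was not called, and SEMA6A was too low to test, with 5, 4 and 6 counts in vector and 4, 3 and 7 in knockout.

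The promoter windows of SEMA5A and EPHA3, the members with the steepest rises, are printed to show how unlike they are. Each runs 5′ to 3′ on the strand of the gene from 250 bases before to 50 bases after the annotated start (RefSeq, GRCh38.p14), at chr5:9546026-9546325 on the minus strand and chr3:89107371-89107670 on the plus strand. Capitals mark GC boxes, the letters GGGCGG on either strand, which may overlap.
SEMA5A: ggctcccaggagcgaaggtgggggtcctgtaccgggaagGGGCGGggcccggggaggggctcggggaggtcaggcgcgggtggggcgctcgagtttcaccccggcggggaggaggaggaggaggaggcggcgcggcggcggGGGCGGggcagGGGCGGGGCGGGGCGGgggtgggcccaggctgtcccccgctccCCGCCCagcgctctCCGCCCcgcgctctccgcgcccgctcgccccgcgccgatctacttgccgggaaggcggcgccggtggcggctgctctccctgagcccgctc
EPHA3: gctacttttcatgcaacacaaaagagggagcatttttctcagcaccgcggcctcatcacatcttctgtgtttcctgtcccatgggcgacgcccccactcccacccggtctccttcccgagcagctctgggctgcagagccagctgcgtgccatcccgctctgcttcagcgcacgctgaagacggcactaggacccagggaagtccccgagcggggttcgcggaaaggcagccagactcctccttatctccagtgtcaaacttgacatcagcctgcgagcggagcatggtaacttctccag
The SEMA5A window was 81.0% G or C, with 39 CpG dinucleotides and 7 GC boxes, some of which overlap one another. The EPHA3 window was 59.7% G or C, with 17 CpG and 0 GC boxes. Over the 35116 windows of all genes the medians were 58.7% and 14 CpG, and 45% held at least 1 GC box. AP-1 letters (TGANTCA, 7.71% of all windows) and TATA letters (TATAAA, 11.5%), also searched on both strands, were in neither window. Among the members, 46 of 52 had a window, and 54 of their 72 windows held a GC box, 1 the AP-1 letters and 3 the TATA letters. A match of letters is a description and not a binding site.

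The receptors for semaphorins changed by less than 2-fold in each case. PLXNB2, the most abundant member of the family at 55.4 FPKM, was level, with 53.2, 55.9 and 57.5 FPKM in vector and 54.8, 57.5 and 53.5 FPKM in knockout replicates 1 to 3. The groups overlapped, its log2 fold change of 0.03 (SE 0.11) was not called, and it held 51.2 ± 3.52% of the summed plexin FPKM in vector and 49.4 ± 2.88% in knockout. The other B-type plexins, receptors of class 4 and class 5 semaphorins, rose: PLXNB1 from 52.7 ± 3.01 to 78.6 ± 3.39 CPM (log2 fold change 0.58, edgeR adjusted p = 0.00369), and PLXNB3 from 27.5 ± 0.56 to 49.3 ± 2.58 CPM (0.84, adjusted p = 7.12e-04). PLXNB1 and its ligand SEMA4D were both higher, as were PLXNB3 and its ligand SEMA5A, while PLXNB2 was level. Whether the changes of ligands and receptors were linked was not tested.

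The A-type plexins, which pair with neuropilins, differed among themselves. PLXNA3 rose from 67.3 ± 2.49 to 109 ± 2.43 CPM (log2 fold change 0.69, edgeR adjusted p = 0.00108), and PLXNA1 fell from 148 ± 11.6 to 102 ± 10.1 CPM (-0.53, adjusted p = 0.00953). The PLXNA1 call was lost without knockout replicate 3 (adjusted p = 0.0534, range over all alternatives 5.1e-05 to 0.0534). PLXNA2 was not called, at -0.07. PLXND1, the receptor of SEMA3E, fell from 19.6 ± 0.79 to 11 ± 0.42 CPM (log2 fold change -0.84, edgeR adjusted p = 0.00101). PLXNC1, the receptor of SEMA7A, was near 1 CPM and not called, at 0.24.

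The neuropilins, co-receptors for class 3 semaphorins and for VEGF, moved apart in their proportions. NRP1 rose from 50.8 ± 6.42 to 99.6 ± 12.3 CPM (log2 fold change 0.97, edgeR adjusted p = 0.00208), while NRP2 had a log2 fold change of -0.37 and was not called (edgeR adjusted p = 0.132). The share of NRP1 in their summed FPKM was 70.9 ± 0.87% in vector and 85.3 ± 0.46% in knockout. NRP1 was therefore higher in the libraries in which its ligand SEMA3A was lower.

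**Figure D3:**
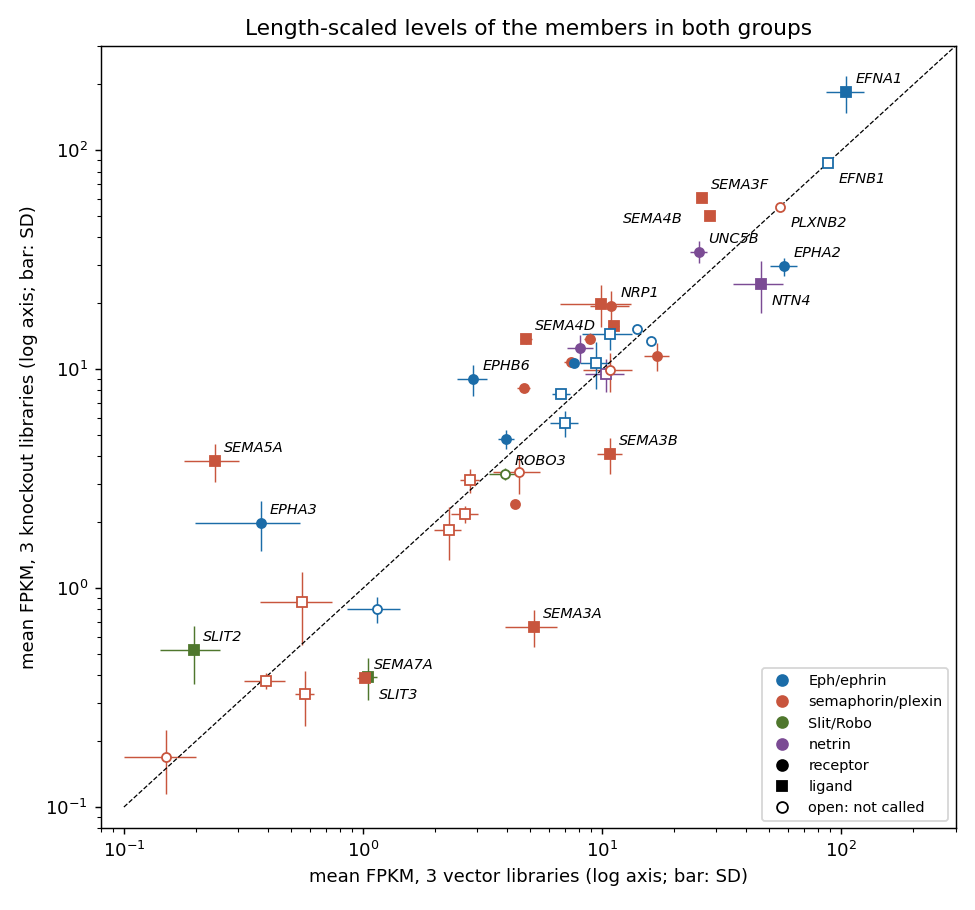
Mean FPKM in the 3 vector libraries (horizontal) against the 3 knockout libraries (vertical), both on log axes with SD bars, for the 46 tested members other than ROBO1, whose knockout mean of 0.01 FPKM lies off the plot; filled symbols mark called members and the dashed line equal levels. EFNA1, EFNB1, PLXNB2 and EPHA2 lie at the abundant end, EFNB1 and PLXNB2 on the line, while SEMA5A and EPHA3 lie far above it and SEMA3A far below.

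ROBO1, a Slit receptor of the immunoglobulin superfamily at chr3:78597239-79767998, was nearly absent from the knockout libraries. It had 234, 164 and 137 counts in vector replicates 1 to 3, or 14.0, 10.6 and 8.69 CPM, and 2, 0 and 1 counts in knockout replicates 1 to 3. The vector libraries varied among themselves, but the lowest was far above each knockout library. Scaled by effective library size, the vector level was 167 times the knockout level (95% counting interval 56.7 to 811, covering counting error only). ROBO1 was called lower (edgeR adjusted p = 8.5e-05), but it passed the low-count filter through its vector libraries alone. The call therefore supports nothing further. Of 6 annotated transcripts that had counts, each was at 0 in all knockout libraries except the most abundant one, which held the 2 and 1 counts of replicates 1 and 3.

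The windows around the ROBO1 starts given in that table are printed, since ROBO1 had the largest fall of the members. They are at chr3:79767949-79768248 and chr3:79019410-79019709, both on the minus strand of GRCh38.p14, and hold none of the letters searched above, so no base is in capitals.
ROBO1 upstream start: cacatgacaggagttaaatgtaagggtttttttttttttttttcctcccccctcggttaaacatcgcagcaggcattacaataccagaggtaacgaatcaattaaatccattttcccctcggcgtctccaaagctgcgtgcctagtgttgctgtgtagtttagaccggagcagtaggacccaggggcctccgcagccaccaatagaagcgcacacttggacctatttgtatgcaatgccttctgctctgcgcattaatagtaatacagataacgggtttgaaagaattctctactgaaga
ROBO1 downstream start: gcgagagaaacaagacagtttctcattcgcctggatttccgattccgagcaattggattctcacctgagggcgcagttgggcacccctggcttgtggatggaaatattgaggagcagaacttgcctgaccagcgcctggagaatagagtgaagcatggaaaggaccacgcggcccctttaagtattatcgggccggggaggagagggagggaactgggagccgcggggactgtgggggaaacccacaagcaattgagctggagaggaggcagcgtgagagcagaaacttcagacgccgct
The upstream window was 45.3% G or C with 11 CpG, and the downstream window 56.7% with 15 CpG.

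No other Robo receptor was called. ROBO3, a divergent Robo of commissural neurons, was the most abundant member of the Slit and Robo family by FPKM, at 3.30, 4.44 and 4.08 in vector and 3.50, 3.37 and 3.10 in knockout replicates 1 to 3. The groups overlapped, and the log2 fold change in counts, -0.17 (SE 0.18), was not called. ROBO2 had 0, 4 and 1 counts in vector and 0, 0 and 0 in knockout replicates and was not tested. A group total of 3 counts corresponds to 0.0626 CPM in vector and 0.067 CPM in knockout. The summed Robo level was 5.66 ± 0.35 FPKM in vector, of which ROBO1 gave 30.3 ± 8.33%, and 3.33 ± 0.21 FPKM in knockout, of which it gave 0.297 ± 0.285%.

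The listed Slit ligands moved in opposite directions at low levels. SLIT2 (chr4:20251905-20620561) had 1.85, 1.10 and 1.59 CPM in vector and 5.06, 2.98 and 4.14 CPM in knockout replicates 1 to 3. Every knockout library was higher, with a log2 fold change of 1.42 (SE 0.28, edgeR adjusted p = 0.00763). SLIT3 (chr5:168661740-169301139) had 10.3, 9.46 and 9.20 CPM in vector and 3.81, 4.61 and 2.78 CPM in knockout replicates 1 to 3. Every knockout library was lower, with a log2 fold change of -1.37 (SE 0.19, edgeR adjusted p = 0.0018).

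Among the listed members of the netrin family both tested receptors rose and 1 of 2 ligands fell. The share called was 75.0% of these 4 tested genes, beside 35.1% of all tested genes. Outside the list, the netrin receptor UNC5A was called lower and NTNG2 higher, as given with their limits under other observations. UNC5B, a netrin receptor linked to repulsion and to cell death in the absence of ligand, rose from 165 ± 6.61 to 228 ± 14.8 CPM (log2 fold change 0.47, edgeR adjusted p = 0.00715). NEO1, which encodes neogenin, a receptor of netrins and repulsive guidance molecules, rose from 54.0 ± 4.16 to 85.8 ± 8.14 CPM (log2 fold change 0.67, edgeR adjusted p = 0.00402). DCC, the receptor that mediates attraction to netrin 1, had 0 counts in the vector libraries and 1, 0 and 0 in the knockout libraries and was not tested.

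NTN4, a netrin found in basement membranes, was the most abundant of the netrin family, at 35.3 FPKM over all libraries. Its FPKM was 58.4, 38.6 and 41.3 in vector and 30.7, 17.7 and 25.4 in knockout replicates 1 to 3, so that the groups were separate. In CPM it fell from 139 ± 28.7 to 76.0 ± 17.3 (log2 fold change -0.87, SE 0.21, edgeR adjusted p = 0.0168). Without knockout replicate 3 the adjusted p was 0.0648, with a range of 3.29e-06 to 0.0648 over all alternatives. NTN1, the classical attractant, was not called, at -0.12.

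For each called member the 40 nearest tested genes on its chromosome were taken as a background. The stretches they covered were of very unequal length, such as chr3:61561571-97761532 for ROBO1, chr3:75694701-105576900 for EPHA3 and chr1:154325525-155934413 for EFNA1. The widest are therefore not local. The steepest changes lay far from the medians of their surroundings. Genes picked for large changes would do so almost anywhere, so this describes them and tests nothing about their location. Around SEMA5A the median log2 fold change was -0.23 and all 40 neighbours were below it. EPHA3 and SEMA4D likewise exceeded 100% of neighbours whose medians were -0.47 and -0.14. ROBO1 was below all of its neighbours, whose median was 0.03, and SEMA3A below all of its own, at -0.22. UNC5B rose within a stretch whose median was -0.57. In contrast, PLXND1 and PLXNA1, both on chromosome 3, lay among genes with medians of -0.46 and -0.32, and 22.5% and 25.0% of those genes were lower still. PLXNA3 and PLXNB3, 679 kb apart on chromosome X, lay among genes with medians of 0.32 and 0.22 and exceeded 77.5% and 90.0% of them.

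**Figure D4:**
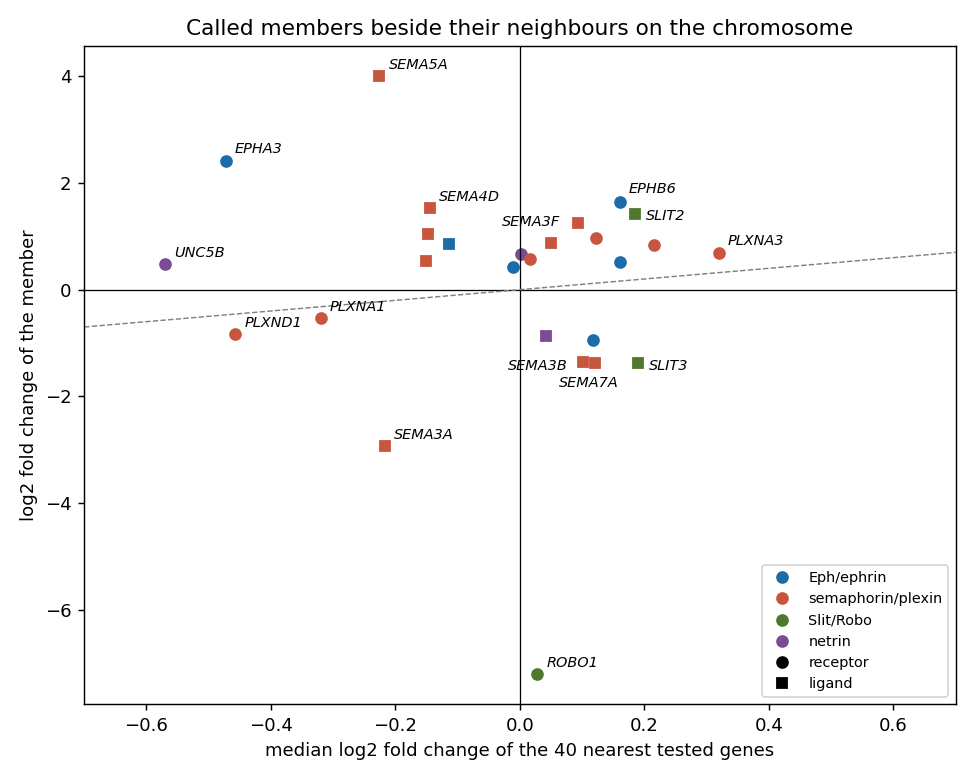
Log2 fold change of each of the 27 called members (vertical) against the median log2 fold change of its 40 nearest tested genes (horizontal), with a dashed line where both are equal. SEMA5A, EPHA3, SEMA3A and ROBO1 (a fitted value) lie far from the line, and PLXND1, PLXNA1 and PLXNA3 near it.

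Genes that carry guidance signals inside the cell were counted from a list of 62 effectors, of which 59 were tested. Of these, 17 were higher, or 28.8% beside 17.8% of all tested genes, and 11 lower, or 18.6% beside 17.4%, which is near the background. The 11 include CHN1, which passed the low-count filter through its vector libraries alone, so its call supports nothing further. The median log2 fold change of the effectors was 0.08. VAV3, a signalling protein that binds activated Eph receptors, rose from 9.34 ± 1.58 to 35.3 ± 3.12 CPM (log2 fold change 1.92, edgeR adjusted p = 1.98e-04). NCK2, an adaptor that links receptors to actin, rose from 56.9 ± 4.07 to 118 ± 8.88 CPM (log2 fold change 1.06, edgeR adjusted p = 4.17e-04). PAK1, a kinase activated by RAC1 and CDC42, rose from 93.4 ± 2.29 to 179 ± 3.74 CPM (log2 fold change 0.94, edgeR adjusted p = 2.48e-04). FYN, a Src-family kinase used by ephrin and semaphorin receptors, fell from 32.6 ± 1.10 to 12.4 ± 0.69 CPM (log2 fold change -1.39, edgeR adjusted p = 1.23e-04).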

How the data were processed

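Libraries of single-end 50-base reads were made on a DNBSEQ instrument, per the labels, and the build was hg38, per the submitters' processing notes. The sources used here give no aligner, counter or strandedness. The authors deposited an expected count per gene, which was rounded to whole numbers here, and, also from the authors, FPKM (per length and library size), used for levels and shares. Genes were filtered (filterByExpr, minimum count 10), scaled with TMM and tested with edgeR 4.0.16 in R 4.3.3 (quasi-likelihood F-test, robust, prior count 0.125), knockout against vector, with Benjamini-Hochberg adjustment over all 13717 tested genes and a threshold of 0.05. The fit was checked on simulated data.

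The members and lists were chosen with earlier results of these data known. By rule, values in every library were given for members called and changed at least 2-fold, means with SD for other called members, and values of the most abundant member of each family; promoters were looked up for members changed at least 4-fold. Of the effectors, the 4 called with the smallest p were named, and of other family genes those called. Coordinates and promoters came from RefSeq, GRCh38.p14. Alternatives were RLE factors, library size only, DESeq2 1.42.0, no filter, 1 CPM in 3 libraries, a replicate block, limma 3.58.1 on log2(FPKM + 1), removal of each library's length trend, and leaving out each library.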

Additional observations from a re-analysis of the deposited data

How the results depend on the processing

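Of the 27 called members, 22 were called in the same direction under all 14 alternatives and 0 reversed. EPHB2, EFNA1, SEMA3C, PLXNA1 and NTN4 each lost the call in at least 1, as given beside them. Over all genes, the replicate block gave 4049 higher and 3890 lower, and leaving out 1 library gave 1551 to 2552 higher and 1475 to 2491 lower, the lowest without knockout replicate 3 and next without vector replicate 3 (1582 and 1521). Members called ran from 15 to 21 higher and 7 to 13 lower over the alternatives, with 15 and 7 without knockout replicate 3. Eph and ephrin members called higher ran from 3 to 6 when 1 library was left out, and those called lower were 3 with the replicate block and 2 with the length trend removed. With the length trend removed 8 semaphorin and plexin members were lower, and with the block 18 effectors were lower. The replicate numbers were not taken as pairs, since the labels do not say what a replicate number shares. The deviations of same-numbered libraries correlated at 0.762, 0.794 and -0.324 for replicates 1 to 3. The libraries numbered 1 and 2 each correlated best with their own number, and those numbered 3 did not.

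Of the 20 members not called, 9 passed in at least 1 alternative and 4 changed sign. EFNB1 was at -0.00347 with library size only, -0.00254 in limma on FPKM and -0.0333 to 0.0861 with a library left out. PLXNB2 was at -0.0041, -0.00572 and -0.0433 to 0.061 in the same order, and at -0.0441 with the length trend removed. SEMA4G ran from -0.149 to 0.119 and PLXNA2 from -0.20 to 0.0772 with a library left out. The cause was not tested. The length trend, in log2 units per doubling of length, ran from -0.117 in knockout replicate 2 to 0.122 in knockout replicate 1, with both signs in each group. The pseudocount of 1 shrinks changes of low genes: in limma on FPKM, SEMA5A was at 1.94, EPHA3 at 1.11 and SLIT2 at 0.34. Depth limits EPHA7, EPHB1, SEMA6A, ROBO2 and DCC, which had too few counts to test.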

Other observations

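Relatives of the members outside the 52 were also counted. Of 24 such genes 23 were in the table and 16 tested, with 2 higher and 3 lower (edgeR quasi-likelihood test), a share of calls of 31.2% beside 35.1% of all genes. NTNG2, a netrin-G tethered to the membrane by a lipid anchor, had 0.478, 0.648 and 0.635 CPM in vector and 5.58, 7.59 and 5.30 CPM in knockout replicates 1 to 3, all knockout libraries being higher (log2 fold change 3.38, SE 0.25, edgeR adjusted p = 1.3e-04). SEMA6D, a transmembrane semaphorin, had 5.44, 3.76 and 3.87 CPM in vector and 15.9, 13.6 and 14.5 CPM in knockout replicates 1 to 3, again without overlap (log2 fold change 1.75, SE 0.17, edgeR adjusted p = 4.51e-04). NTNG2 passed the low-count filter through its knockout libraries alone, and EPHA8 and UNC5A passed through the vector group, where they were higher, so their calls and the counts that hold them support nothing further. The 3 called lower were weakly expressed in both groups. EPHA8 was at 1.33 ± 0.28 CPM in vector and 0.556 ± 0.136 in knockout (log2 fold change -1.25, edgeR adjusted p = 0.0165), SLIT1 at 3.03 ± 0.20 and 1.88 ± 0.29 (-0.69, adjusted p = 0.0269), and UNC5A, a netrin receptor, at 1.2 ± 0.26 and 0.586 ± 0.171 (-1.03, adjusted p = 0.0419).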
